A study of Mus musculus with 12 samples.

Results

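Ltn1 encodes listerin, the ubiquitin ligase of ribosome quality control, and it was followed here in the hippocampus of Madison (MSN) and hsd:ICR (ICR) mice together with its partner genes Nemf, Pelo, Hbs1l, Vcp and Tcf25. Every transcript cluster, the array's unit of a set of probes summarized to 1 value, that the platform annotation assigns to 1 of these 6 genes and to no other gene was taken. That gave 22 of the 35556 clusters in the table: 16 of Ltn1, 2 of Hbs1l and 1 each of Nemf, Pelo, Vcp and Tcf25. Ltn1 was chosen by the strain contrast of these same arrays, in which some of its clusters were higher and others lower in MSN mice. All 16 were therefore kept apart, and their strain differences are a description, with no test. The partners were taken for their roles, with earlier results of these data known.

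The tested mice were 6 MSN and 6 ICR adult males, each an animal of its own with 1 Affymetrix Mouse Gene 1.0 ST array. MSN is an inbred strain with a manic phenotype that was bred from the outbred ICR stock by selection for behavior, and ICR is its ancestral strain and the control. No mouse carried an engineered allele or received a drug, and all were killed under isoflurane anesthesia before the hippocampus was dissected by hand. MSN is 1 selected strain kept in a colony separate from ICR, so behavior, selection history, genetic drift and colony cannot be told apart.

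When a ribosome stalls on an mRNA, Pelo and Hbs1l open the stalled complex and leave the unfinished peptide attached to the large ribosomal subunit. Nemf binds this subunit, brings in Ltn1 and adds a short tail to the peptide, and Ltn1 then marks the peptide with ubiquitin. Vcp, an ATPase that pulls ubiquitin-marked proteins out of complexes, draws the peptide off for the proteasome, and Tcf25 is the mammalian counterpart of the yeast factor Rqc1, which works with the ligase. Mice with a weakened Ltn1 allele or with mutant Nemf suffer degeneration of motor neurons, so the pathway is known for protecting neurons.

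The arrays were alike in overall level, with median intensities between 270.2 and 298.0 and mean correlations with the other mice of the same strain between 0.9934 and 0.9966. Differences were computed as MSN minus ICR on the scale of log2(intensity + 16), and limma was fitted over the 23410 clusters with a gene. At an adjusted P-value under 0.05 it called 182 clusters, or 0.777%, of which 71 (0.303%) were higher in MSN and 111 (0.474%) were lower. Camk2a and Slc17a7, which mark hippocampal pyramidal neurons, averaged 11751 ± 245 and 8532 ± 375 intensity units in MSN and 11500 ± 191 and 8819 ± 243 in ICR (SD, n = 6 each). The 4 pyramidal neuron markers had log2 differences from -0.05 to 0.15, with 2 above 0 and 2 below. Of 39 cell type markers with a cluster, the oligodendrocyte precursor marker Pdgfra was the only 1 called (log2 difference 0.26, adjusted P-value = 0.0184, limma). The summed intensity of the 5 choroid plexus markers ran from 8783 to 21256 in MSN mice and from 7253 to 21121 in ICR mice, and all 5 had log2 differences above 0, with a median of 0.34. The astrocyte markers Gfap and Aqp4 had log2 differences of -0.30 and -0.23 (adjusted P-values 0.101 and 0.148, limma), of the size of the differences in Ltn1. The astrocyte list as a whole went both ways. Of its 5 clusters 3 were below 0 and 2 above, with a median of -0.07 and a highest difference of 0.19. The part of these cell types in the values below was not tested.

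Ltn1 did not move as 1 gene on these arrays. Its 16 clusters spanned log2 differences from -0.28 to 0.21, with 6 above 0, 10 below 0 and a median of -0.07, beside a median of -0.0079 over all clusters tested. The average of the 16 clusters was 9.933 ± 0.0488 in MSN and 9.997 ± 0.032 in ICR on the log2 scale (SD, n = 6 each), a difference of -0.06. In whole hippocampus, fewer cells of a type and less RNA per cell cannot be told apart, and this holds for every value here. The authors also could not exclude that sequence changes where probes bind affected some genes. Whether this plays a part in the values of single clusters was not tested.

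The lowest of the clusters, 10440568, had a lowest value of 1824, a median of 1907 and a highest value of 2083 in MSN mice, against 2281, 2314 and 2454 in ICR mice. Every MSN mouse was below every ICR mouse, and the means were 1921 ± 93.6 in MSN and 2332 ± 64.9 in ICR (SD, n = 6 each), a log2 difference of -0.28 (SE 0.04). Cluster 10440570, the brightest of the 16 in both strains, had 2729, 2826 and 2959 as lowest, median and highest values in MSN mice and 3031, 3315 and 3536 in ICR mice. These groups did not overlap either, and the log2 difference was -0.22 (SE 0.04). In cluster 10440572 the MSN mice lay between 1501 and 1712 with a median of 1624, and the ICR mice between 1738 and 1896 with a median of 1851. The gap between the highest MSN mouse and the lowest ICR mouse was narrow here, and the log2 difference was -0.19 (SE 0.04).

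A single cluster ran clearly the other way. Cluster 10440566 read 1330, 1378 and 1455 as lowest, median and highest values in MSN mice, against 1091, 1195 and 1297 in ICR mice. Every MSN mouse was above every ICR mouse, with means of 1385 ± 45.9 in MSN and 1197 ± 81.5 in ICR (SD, n = 6 each) and a log2 difference of 0.21 (SE 0.05). The 4 clusters described so far are those with an adjusted P-value under 0.05 in the fit over all clusters, and this contrast chose the gene, so nothing is read from their number beside the 0.777% called overall. Only to place the threshold, cluster 10440566 lay just inside it (adjusted P-value = 0.0499, limma), and cluster 10440576 lay just outside it (0.0543). With single arrays left out, 10440566 stayed inside without ICR replicate 2 or 4 and missed the threshold when any 1 of the other 10 was left out.

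**Figure D1:**
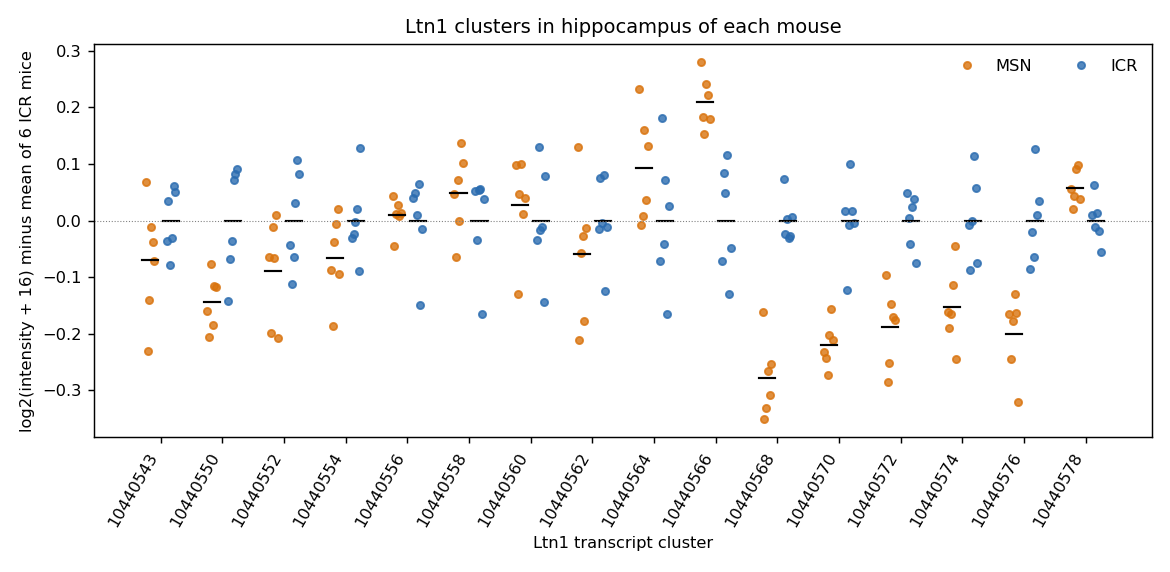
Each point is 1 mouse, with the 6 MSN mice left of the 6 ICR mice at each of the 16 Ltn1 transcript clusters on the horizontal axis. The vertical axis is log2(intensity + 16) relative to the ICR average of the same cluster, and bars are strain means. MSN mice lie above all ICR mice at 10440566 and below all ICR mice at 10440568, 10440570, 10440572 and 10440576.

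Strains failed to overlap in 5 of the 16 clusters, beside 1.44% of all clusters tested. In 1 of them MSN was higher (0.568% of all clusters) and in 4 lower (0.867%). These counts come from the contrast that chose the gene, and nothing is read from them beside those shares. The fifth was 10440576, with 778, 865 and 891 as lowest, median and highest values in MSN mice and 918, 972 and 1067 in ICR mice, a log2 difference of -0.20 (SE 0.04). In cluster 10440574, 1 MSN mouse reached into the ICR range, and the means were 1642 ± 78.4 in MSN and 1828 ± 98.8 in ICR (SD, n = 6 each), a log2 difference of -0.15. The 5 clusters with consecutive even numbers from 10440568 to 10440576 were thus all lower in MSN. Cluster 10440550, far from them in number, differed by -0.14, with 618 to 677 in MSN mice and 647 to 763 in ICR mice. The remaining 9 clusters had overlapping strains and log2 differences between -0.09 (10440552) and 0.09 (10440564). No Ltn1 or partner cluster was at or below 16 intensity units on any array.

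Read within a mouse, the opposed clusters separated the strains further. The ratio of cluster 10440566 to cluster 10440568 was 0.722 ± 0.0219 in MSN and 0.514 ± 0.0427 in ICR (SD, n = 6 each). It ran from 0.6945 to 0.7447 over the MSN mice and from 0.4634 to 0.5685 over the ICR mice. A ratio of 2 clusters on the same array is free of that array's scale, but since the pair was picked as the highest and the lowest difference, the gap between strains follows from the choice.

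**Figure D2:**
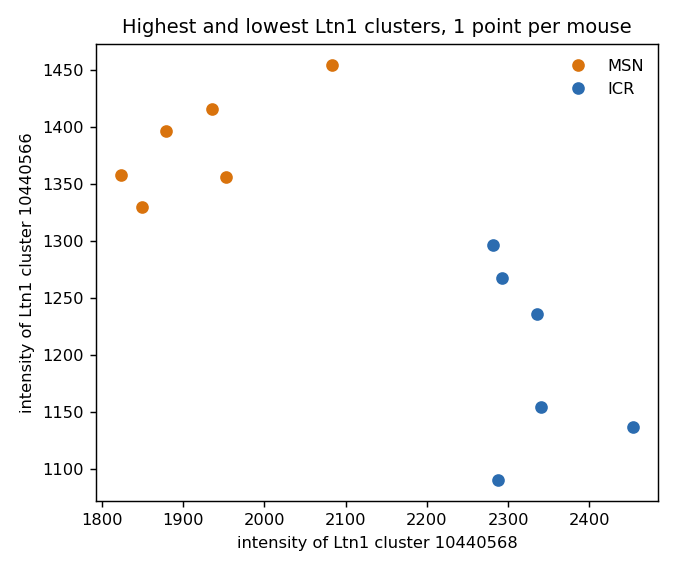
Intensity of Ltn1 cluster 10440566 on the vertical axis against that of Ltn1 cluster 10440568 on the horizontal axis, with 1 point per mouse. The 6 MSN mice lie at the upper left, with at least 1330 units in 10440566 and at most 2083 in 10440568, and the 6 ICR mice lie at the lower right.

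The annotation gave no position of a cluster within the gene, but it listed the accessions each cluster matches. A predicted noncoding transcript model of the locus was listed for 10 of the 16 clusters, those numbered 10440560 to 10440578, and all 4 clusters under the adjusted threshold were among them. The 10 had a median log2 difference of -0.11, and the other 6, for which it was not listed, had a median of -0.07.

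Calls in both directions within a gene were counted as a description only. Of the 999 genes with at least 2 clusters, 4 had more than 1 called cluster, and only these 4 could have calls in both directions. Ltn1 was the only gene that had them in this fit. This is the property it was chosen for, so nothing is read from it. The range of the log2 differences within Ltn1 was 0.49. Over the 221 other genes with at least 3 clusters the median range was 0.08, while over the 23 other genes with at least 10 clusters the ranges ran from 0.04 to 0.53, so a gene with as many clusters as Ltn1 could span as much.

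The correlation between clusters among mice of the same strain was not used to choose the gene. After each strain's mean was subtracted, the 120 pairs of Ltn1 clusters had a median Pearson correlation of 0.246 over the 12 mice (lowest -0.385, highest 0.838), and 91 pairs were above 0. In the 221 other genes with at least 3 clusters the median of the same quantity was 0.698, and 182 of them (82.4%) exceeded Ltn1. The clusters of Ltn1 thus tracked each other less closely than those of most of these genes in the main setting. The genes compared were not matched to Ltn1 in their number of clusters. These correlations share arrays and mice and are given as a description. The median was 0.455 within MSN mice and 0.0393 within ICR mice. Without MSN replicate 2, which had the lowest value of its strain in 11 of the 16 clusters, it was 0.129, and with each array scaled to the same median it was 0.481.

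By their medians, clusters close in number varied together more than distant ones. The 15 pairs next to each other in number had a median correlation of 0.452, and the 36 pairs that were 8 or more places apart had a median of 0.187. A block ran from 10440556 to 10440566, where 10440562 with 10440564 reached 0.838 and 10440564 with 10440566 reached 0.775. A different pair, 10440570 with 10440574, reached 0.754, and 10440568 with 10440572 had 0.67. Some pairs far apart in number were as high, with 0.70 for 10440543 with 10440572 and 0.68 for 10440552 with 10440576. The highest and the lowest clusters of the strain contrast, 10440566 and 10440568, correlated at 0.12 over the 12 mice. A mouse with a high value in one of them for its strain was thus not regularly high or low in the other.

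**Figure D3:**
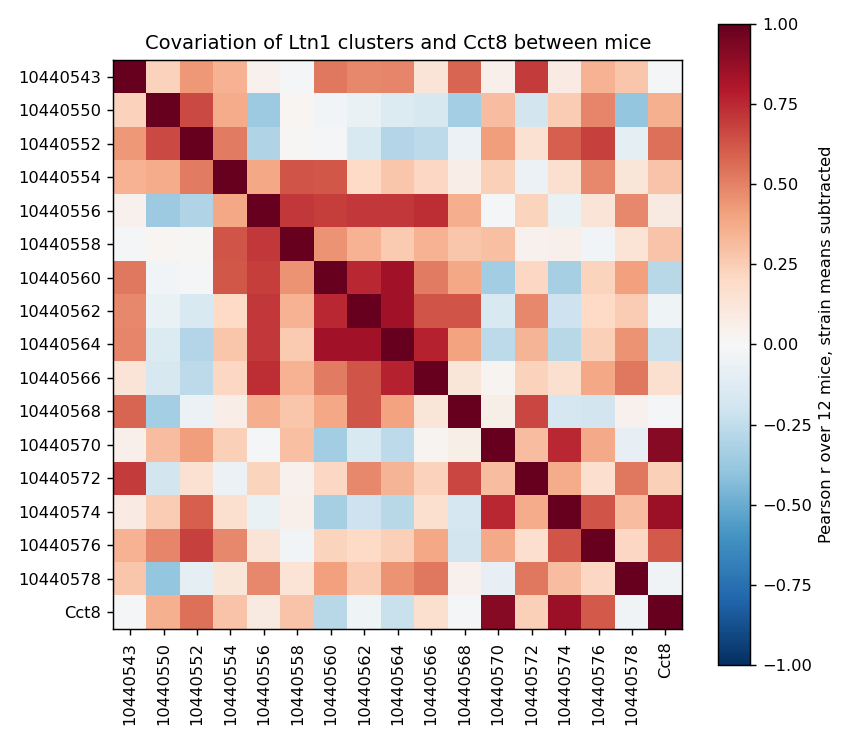
Pearson correlation over the 12 mice, strain means subtracted, between the 16 Ltn1 transcript clusters in order of number and the neighboring gene Cct8 in the last row and column. Red is above 0 and blue below 0. The block from 10440556 to 10440566 is mostly red, and Cct8 is darkest with 10440570 (0.910) and 10440574 (0.857).

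The gene most like the brightest Ltn1 cluster in this measure was, in the main setting, a neighbor on chromosome 16. Most other Ltn1 clusters did not follow it over the 12 mice together. Among 21773 clusters of other single genes, those closest to cluster 10440570, the brightest Ltn1 cluster, were Cct8 (r = 0.910 over 12 mice, strain means subtracted), Kcnk6 (0.904) and Pbdc1 (0.881). Cct8 encodes a subunit of the chaperonin CCT, which folds actin and tubulin, and Kcnk6 encodes a potassium channel. The nearest edges of Ltn1 and Cct8 are 50.7 kb apart in RefSeq's GRCm38.p6 annotation, where Cct8 lies behind Rwdd2b and Usp16.

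Cct8 was lower in MSN mice and was the only neighbor called. Its lowest, median and highest values were 2096, 2164 and 2252 in MSN mice, against 2413, 2642 and 2897 in ICR mice. All MSN mice were below all ICR mice, and the log2 difference was -0.28 (SE 0.04, adjusted P-value = 0.00626, limma). Kcnk6 and Pbdc1 had log2 differences of -0.02 and 0.01 (adjusted P-values 0.843 and 0.949, limma), so the likeness between mice did not go with a shared strain difference in these genes.

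Agreement between Cct8 and cluster 10440570 was closer in ICR mice (r = 0.986) than in MSN mice (r = 0.616). Over the 12 mice Spearman's rho was 0.825, and r was 0.624 once the 2 mice farthest from the median were left out. Leaving out ICR replicate 2 gave r = 0.818 and put Cct8 at rank 30. Leaving out ICR replicate 4 gave 0.862 and rank 16, and the relation thus leans on these mice. The first place also changed with other mice. Cct8 was at rank 2 without MSN replicate 1 or 6 or ICR replicate 1 or 6. It was at rank 3 without MSN replicate 5 and at rank 4 without MSN replicate 4. Rank 1 was kept without MSN replicate 2 or 3 or ICR replicate 3 or 5. After quantile normalization Cct8 was at rank 6 (r = 0.893). Other Ltn1 clusters differed in how they followed Cct8. Over the 12 mice, 10440574 had r = 0.857 with Cct8 and 10440576 had 0.613. Cluster 10440560 had -0.279, 10440568 had -0.0175, 10440566 had 0.161 and 10440572 had 0.237. Within MSN mice alone r was 0.991 for 10440574, 0.883 for 10440578, 0.835 for 10440552, 0.815 for 10440576 and 0.763 for 10440554. In the same order these had 0.867, -0.346, 0.498, 0.584 and 0.109 in ICR mice, so the closer agreement in ICR mice did not hold for them. Some clusters stayed low in MSN mice, such as 10440562 (-0.155) and 10440568 (0.006). No P-value is attached, since Cct8 was picked as the highest of all clusters compared.

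**Figure D4:**
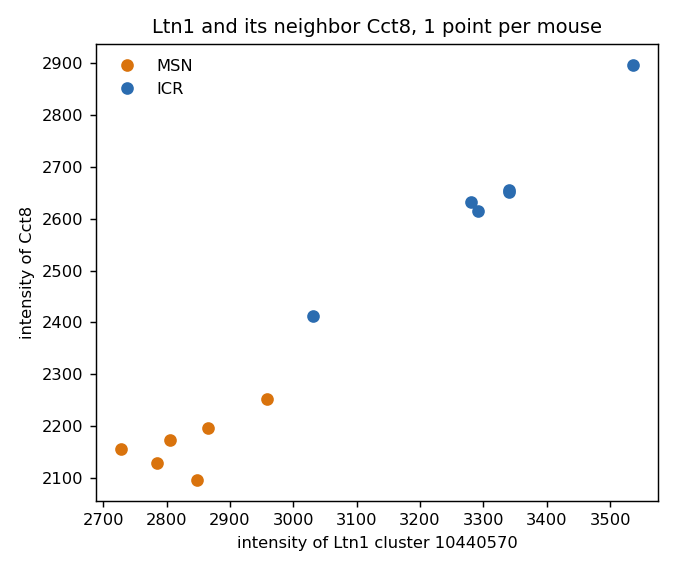
Intensity of Cct8 on the vertical axis against that of Ltn1 cluster 10440570 on the horizontal axis, with 1 point per mouse. The 6 MSN mice sit at the lower left with at most 2252 units of Cct8, and the 6 ICR mice sit at the upper right with at least 2413.

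The start regions of Ltn1 and Cct8 are shown because Cct8 varied with Ltn1 cluster 10440570 between mice (r = 0.91, strain means subtracted). Most other Ltn1 clusters did not follow Cct8, and Cct8 was picked as the highest of all clusters compared. Both genes lie on the minus strand of chromosome 16. The sequences are RefSeq's for GRCm38.p6, from 250 bases before to 50 bases after the annotated start, at chr16:87432557-87432856 and chr16:87495820-87496119, written 5′ to 3′ with the ETS core CGGAAGT and the CCAAT box (CCAAT, or ATTGG where it is reversed) in capitals.
Ltn1: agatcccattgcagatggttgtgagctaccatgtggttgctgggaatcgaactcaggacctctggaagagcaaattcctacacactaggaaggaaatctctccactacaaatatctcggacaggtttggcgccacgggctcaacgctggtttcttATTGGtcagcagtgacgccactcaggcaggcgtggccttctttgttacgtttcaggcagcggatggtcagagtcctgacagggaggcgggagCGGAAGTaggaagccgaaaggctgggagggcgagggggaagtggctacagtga
Cct8: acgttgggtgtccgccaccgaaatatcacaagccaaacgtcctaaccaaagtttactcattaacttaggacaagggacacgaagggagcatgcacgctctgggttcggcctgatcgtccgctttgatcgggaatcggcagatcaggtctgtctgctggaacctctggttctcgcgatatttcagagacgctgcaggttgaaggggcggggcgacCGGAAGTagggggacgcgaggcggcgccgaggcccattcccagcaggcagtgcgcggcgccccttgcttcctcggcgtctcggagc
Both hold CGGAAGT on the strand shown, at bases 248 to 254 of the Ltn1 window and 215 to 221 of the Cct8 window. Searched on both strands, these 7 letters occurred in 2109 of 32851 RefSeq promoter windows of the same length (6.42%), and in neither direction did they occur in the windows of Nemf, Pelo, Hbs1l, Vcp or Tcf25. They also occurred in the window of Usp16, at bases 240 to 246, a gene between Ltn1 and Cct8 that was not called. CCAAT occurred in 37.4% of windows, once in that of Ltn1, in the reverse direction at bases 156 to 160, and 5 times in that of Vcp. It also occurred in the reverse direction in the windows of Nemf (bases 204 to 208) and Tcf25 (bases 277 to 281). The motifs were chosen after the windows had been read, and a match describes the letters only.

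Around Ltn1, 20 genes with a cluster of their own were read, 10 on each side. Their log2 differences were split evenly, with 10 above 0 and 10 below 0 and a median of -0.0024, and Cct8 was the 1 called, beside 0.777% of all clusters. Unadjusted P-values were under 0.05 in 3 of the 20, beside 12.7%. Rwdd2b, whose nearest edge lies 711 bases beyond Ltn1, averaged 415 ± 34.6 in MSN and 431 ± 26.1 in ICR (SD, n = 6 each; log2 difference -0.05, adjusted P-value = 0.732, limma). On the other side N6amt1, a methyltransferase that modifies the termination factor Etf1, averaged 634 ± 56.7 in MSN and 541 ± 49.1 in ICR (log2 difference 0.22, adjusted P-value = 0.161, limma). Usp16, a deubiquitinase of histone H2A that lies between Rwdd2b and Cct8 and overlaps the end of Cct8 in the annotation, had a log2 difference of -0.02 (adjusted P-value = 0.868, limma).

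None of the partner clusters passed the test, beside 0.777% of all clusters, and none separated the strains, beside 1.44%, shares at which a set of 6 clusters would seldom hold any. Of the 6, 4 were above 0 and 2 below, with a median log2 difference of 0.05, or all 6 above 0 with each array scaled to the same median, and 1 had an unadjusted P-value under 0.05, beside 12.7% of all clusters tested. That cluster was Vcp, the segregase, with 2156, 2230 and 2333 as lowest, median and highest values in MSN mice and 1975, 2066 and 2245 in ICR mice. Of the ICR mice, 1 lay within the MSN range, and the log2 difference was 0.10 (95% confidence interval 0.02 to 0.17, adjusted P-value = 0.264, limma).

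The rescue factors overlapped widely between strains. Pelo, which enters the empty decoding site, had 310.02, 326 and 367 as lowest, median and highest values in MSN mice and 285, 317 and 328 in ICR mice, a log2 difference of 0.11 (95% confidence interval -0.0014 to 0.21, adjusted P-value = 0.402, limma). For Hbs1l, its GTPase partner, cluster 10362036 averaged 1451 ± 74.8 in MSN and 1375 ± 62.7 in ICR (SD, n = 6 each), a log2 difference of 0.08 (-0.01 to 0.17, adjusted P-value = 0.491, limma). The second Hbs1l cluster, 10363903, averaged 978 ± 59.8 in MSN and 963 ± 58.3 in ICR, a difference of 0.02 (-0.08 to 0.13, adjusted P-value = 0.896, limma).

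Nemf, which binds the same subunit as Ltn1 and recruits it, ran from 679.9 to 752 with a median of 707 in MSN mice and from 703 to 764 with a median of 712 in ICR mice. The log2 difference was -0.02 with an interval of -0.10 to 0.05 (adjusted P-value = 0.838, limma). Tcf25, the counterpart of yeast Rqc1, averaged 5969 ± 178 in MSN and 5982 ± 78.5 in ICR (SD, n = 6 each), a log2 difference of -0.0034 with an interval of -0.07 to 0.06 (adjusted P-value = 0.978, limma).

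**Figure D5:**
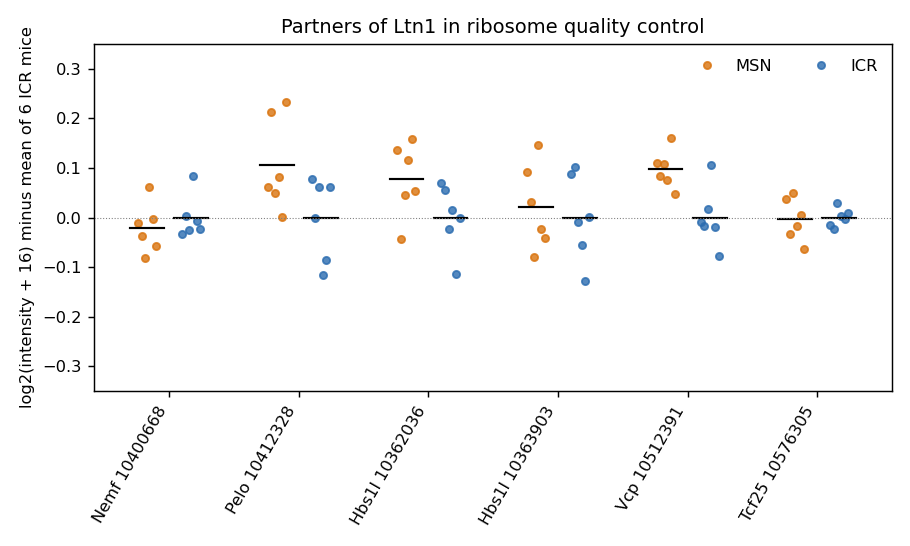
Each point is 1 mouse, with the 6 MSN mice left of the 6 ICR mice at each of the 6 partner clusters on the horizontal axis. The vertical axis is log2(intensity + 16) relative to the ICR average of the same cluster, and bars are strain means. The strains overlap at every cluster, and the largest gap between means is 0.11 at Pelo.

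The wider pathway was read from 6 lists that hold 75 genes, of which 69 had a cluster and 76 clusters were tested. None was called, beside 0.777% of all clusters, and none had strains that did not overlap, beside 1.44%, so these counts are near those over all clusters. The lowest adjusted P-value was 0.238 (limma). Unadjusted P-values were under 0.05 in 8 of them (10.5%, beside 12.7% of all clusters). Log2 differences were above 0 in 33 and below 0 in 43, with a median of -0.0067, beside -0.0079 over all clusters tested. With each array scaled to the same median, the median over all clusters was 0.0171. The counts by direction in the lists below are given for the main scaling only, and many of the differences are close to 0.

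Upstream of Ltn1, the collision sensors, which detect ribosomes that run into each other, had 8 of 13 clusters above 0 and 5 below. Ascc2, a subunit of the complex that takes collided ribosomes apart, averaged 584 ± 20.5 in MSN and 664 ± 94.1 in ICR (SD, n = 6 each), a log2 difference of -0.17 (adjusted P-value = 0.383, limma). The ICR mice spread widely in this gene. Gcn1, which senses collisions for the integrated stress response, differed by 0.06, and Rnf10, a ligase of the small ribosomal subunit, by 0.05. Of the 6 rescue genes, 5 were below 0, and Gtpbp2 and Gtpbp1, relatives of Hbs1l that resolve stalls, differed by -0.06 each, followed by the release factor Gspt2 at -0.04.

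Beside and after Ltn1, 9 of 10 clusters of nascent chain quality control were below 0, within a narrow band from -0.07 to 0.0008. Klhdc10, part of a ligase that reads the tails Nemf adds, averaged 1504 ± 51.5 in MSN and 1566 ± 39.0 in ICR (SD, n = 6 each; log2 difference -0.06, adjusted P-value = 0.507, limma). Ube2d1, a ubiquitin-conjugating enzyme, differed by -0.05, as did Ankzf1, which releases the ubiquitin-marked peptide from its tRNA. Among 22 clusters of Vcp cofactors, 15 were above 0 and 7 below. Ufd1, which guides Vcp to ubiquitin-marked proteins, averaged 1323 ± 86.9 in MSN and 1433 ± 77.5 in ICR (log2 difference -0.11, adjusted P-value = 0.349, limma), while Derl1 and Derl2, membrane proteins of degradation at the endoplasmic reticulum, differed by 0.07 and 0.11.

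UFMylation is the marking of ribosomes stalled at the endoplasmic reticulum with the small modifier Ufm1. Its list had an unadjusted P-value under 0.05 (limma) in 3 of 9 clusters, and the decay genes below had one in 3 of 16. The share over all clusters tested was 12.7%, and no cluster of either list was called, so nothing is read from these counts. Cdk5rap3, a part of the UFM1 ligase complex, averaged 385 ± 15.4 in MSN and 357 ± 13.3 in ICR (SD, n = 6 each; log2 difference 0.11, adjusted P-value = 0.238, limma). Its substrate Rpl26 differed by 0.14 (adjusted P-value = 0.346, limma), and Ufc1, the conjugating enzyme, by -0.10 (adjusted P-value = 0.313, limma). The decay genes for mRNAs with stalled ribosomes were mostly below 0, in 13 of 16 clusters, with a median of -0.05. Xrn1, the nuclease that degrades mRNA from its start, averaged 727 ± 44.0 in MSN and 789 ± 22.9 in ICR (log2 difference -0.12, adjusted P-value = 0.252, limma), and the exosome subunits Exosc2 and Exosc3 both differed by -0.11.

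Since MSN is inbred and ICR outbred, the spread among mice of a strain was also compared. It was wider in ICR mice in 10 of the 16 Ltn1 clusters and in 1 of the 6 partner clusters, beside 49.8% of all clusters tested. Of the Ltn1 clusters 2, 10440550 and 10440566, had an exact permutation P-value of 0.0281 (two-sided), beside 5.07% of all clusters with one under 0.05. In 10440566 the mean absolute deviation from the strain median was 0.04 in MSN and 0.08 in ICR on the log2 scale, with the same 2 rounded values in 10440550. After adjustment over all clusters the lowest P-value of any Ltn1 or partner cluster was 0.861, and no cluster on the array was called.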

How the data were processed

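Hippocampal RNA from 6 MSN and 6 ICR mice was hybridized to 1 array each. The authors summarized probes to transcript clusters with PLIER in Affymetrix Power Tools 1.12.0, with a background correction by GC content, and deposited linear intensities, which carry no depth, so the number of arrays limits the precision. Array-wide normalization was not repeated. Genes came from the platform annotation, and neighbors and promoters from RefSeq (GRCm38.p6); the array's own build was not matched to it, so no cluster was placed by coordinates.

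Intensities were turned into log2(intensity + 16), and strains were compared with limma 3.58.1 in R 4.3.3 (lmFit, eBayes, strain as the only term) over 23410 clusters with a gene, with Benjamini-Hochberg adjustment and a threshold of 0.05. The authors also used limma, on a scale not given in the sources used here. Untransformed values were tried as an alternative, beside other pseudocounts, scalings, filters and leaving out each array. Within-strain spread was tested with an exact permutation test over all splits of the 12 mice (Python 3.11.15). The fit was tested on simulated data. Replicate numbers did not pair the mice.

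Named were all clusters of Ltn1 and its partners, called genes and the 3 with the smallest unadjusted P-value per pathway list, called and adjacent neighbors, the 3 genes most like the brightest Ltn1 cluster, and up to 2 markers per list. Members and lists were chosen with earlier results of these data known.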

Additional observations from a re-analysis of the deposited data

Results flagged for a closer look

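A lone value was looked for in 86 groups of 6 mice. The gap of the highest or lowest mouse to its neighbor was divided by the range of the group. Gap and range were taken on the log2 scale of the strain comparison. The values printed here are intensities, so the ratios do not follow from them directly. On the log2 scale 6 groups passed Dixon's critical value for a group of that size. Chance gives such a value in about 5% of groups. In Ltn1 cluster 10440556, ICR replicate 5 read 991 while the other ICR mice lay between 1089 and 1152 (ratio 0.628). In Ltn1 cluster 10440568, ICR replicate 1 read 2454 while the other ICR mice lay between 2281 and 2340 (ratio 0.648), and this mouse lies farther from the MSN mice than the rest of its strain. Nemf read 764 in ICR replicate 4 and between 703 and 722 in the other ICR mice (ratio 0.687). Ankzf1 read 393 in MSN replicate 2 and between 352 and 363 in the other MSN mice (ratio 0.728). Cdk5rap3 read 331 in ICR replicate 3 and between 358 and 371 in the other ICR mice (ratio 0.679). Xrn1 read 645 in MSN replicate 5 and between 727 and 772 in the other MSN mice (ratio 0.662).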

How the results depend on the processing

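No partner or pathway cluster was called and Cct8 was the 1 neighbor called under each of the 21 alternatives. Ltn1 was chosen by this contrast, so its counts describe the settings and support nothing. The number of Ltn1 clusters under the adjusted threshold was 4. It was 5 with a pseudocount of 64, after quantile normalization, with limma's trend and robust options, and with only clusters above the median mean. With a pseudocount of 1 it was 3. It was 2 with each array scaled to the same median, 2 with all clusters of the table tested and 1 with the replicate number as a block. With an array left out it was 2 to 3 (3 without MSN replicate 1 or ICR replicate 2, 3 or 4). Cluster 10440566 passed in 6 of 8 other settings and without 2 of the 12 arrays, and missed with a pseudocount of 1 (adjusted P-value = 0.0585, limma), all clusters tested (0.0764) and the block (0.125). The count over all clusters was 182. It was 279 with a pseudocount of 64, 273 with the trend and robust options, 255 with the median filter and 240 after quantile normalization. With the block it was 42, and with an array left out 91 to 210. The lowest of these were without MSN replicate 4 (91) or 3 (103) and ICR replicate 6 (93) or 5 (118). Of the calls 39.0% were higher in MSN, 54.6% after quantile normalization and 56.4% with equal medians. Replicate numbers did not pair the mice, with correlations from -0.126 to 0.125 for the same number, and 1 of 6 numbers had its own as best partner. With equal medians Nemf was at 0.0043, all 6 partners were above 0 and the median Ltn1 correlation was 0.481, and without an array that median ran from 0.129 to 0.310. Tcf25 turned to 0.0033 after quantile normalization and 0.023 with equal medians, and ran from -0.014 to 0.0084 without an array, Hbs1l cluster 10363903 from -0.0043 to 0.0416. The 2 Ltn1 clusters with a small P-value for spread became 1 on untransformed intensities, 1 after quantile normalization and 0 with equal medians. The causes were not tested.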
